A study of Mus musculus with 4 samples.

Results

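The regions described here are the islands of histone H3 lysine 9 trimethylation (H3K9me3) that lie in the last 10 Mb of the 19 mouse autosomes, in naive and in activated CD8+ T cells. Islands are regions that the authors' caller built by joining enriched windows. An island was taken as a member when its midpoint fell in the last 10 Mb before the distal end, and the end was set at the largest gene or island end on the chromosome in build mm10. By this rule 1315 of the 19989 listed islands were members on day 0 and 2660 of 47553 on day 3. The windows make up 7.91% of the autosomal sequence considered (190 Mb distal and 2212 Mb in the rest).

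The mice were C57BL/6 of wild-type genotype, and CD8+ T cells were used. Day 0 cells were naive, and day 3 cells had been cultured in vitro with anti-CD3, anti-CD28 and IL-2 (interleukin-2), which together stimulate T cell division and differentiation. The assay was native ChIP-seq against H3K9me3, which cuts chromatin with micrococcal nuclease and uses no cross-linking. There was 1 ChIP library per day, so no test between days was possible, and each difference between days is a difference between 2 libraries with no replicate check. Islands do not measure expression, so the cell type was not checked against marker genes. The labels give neither the age of the mice nor whether animals were pooled, and the 2 input libraries were not analysed here.

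H3K9me3 is a mark of heterochromatin. It is written by methyltransferases such as the Suv39h enzymes and Setdb1 and is read by the HP1 proteins, and it covers satellite repeats, telomeres, transposable elements and many silent genes. Mouse autosomes carry the centromere at the start of their numbering, so the highest coordinates of each chromosome lie next to the distal telomere. The telomere repeats themselves are not part of what short reads can be placed on, so the islands described here lie in the chromosome arm before them.

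Promoters were seldom inside distal islands, and the 6 that follow are examples chosen from those wholly inside an island in the last 10 Mb. RefSeq promoter windows of 300 bases (250 before to 50 after the gene start, build GRCm38.p6) were available for 3392 starts of 2754 distal genes. Of these windows, 59 or 1.74% (95% Wilson interval 1.35 to 2.24) lay wholly inside a day 0 island, against 2.1% of all autosomal windows. On day 3 it was 50 or 1.47% (interval 1.12 to 1.94), against 2.56% of all. Only 4 windows of 3 genes were inside islands on both days: Neurod4, which encodes a neuronal transcription factor, Macc1, and Krtap8-1, a hair keratin-associated protein gene. The other 3 promoters shown belong to the chemokine receptor genes Xcr1, Ccr3 and Ccr2 and were inside islands on day 3 only. The sequences are from RefSeq, written 5′ to 3′ on the strand of the gene, with CpG dinucleotides in capitals.
Neurod4 (chr10:130280089-130280388, minus strand): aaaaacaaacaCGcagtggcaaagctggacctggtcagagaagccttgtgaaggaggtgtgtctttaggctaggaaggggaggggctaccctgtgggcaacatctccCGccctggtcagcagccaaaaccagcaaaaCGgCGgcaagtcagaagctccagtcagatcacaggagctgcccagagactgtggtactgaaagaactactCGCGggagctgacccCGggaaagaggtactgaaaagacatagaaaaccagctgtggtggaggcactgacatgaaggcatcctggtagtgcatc
Macc1 (chr12:119443160-119443459, plus strand): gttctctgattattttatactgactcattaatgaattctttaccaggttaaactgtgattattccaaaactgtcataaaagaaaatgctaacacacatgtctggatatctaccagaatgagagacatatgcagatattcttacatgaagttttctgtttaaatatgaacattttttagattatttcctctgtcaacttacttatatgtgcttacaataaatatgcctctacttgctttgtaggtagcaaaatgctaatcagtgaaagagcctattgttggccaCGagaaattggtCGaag
Krtap8-1 (chr16:89487903-89488202, minus strand): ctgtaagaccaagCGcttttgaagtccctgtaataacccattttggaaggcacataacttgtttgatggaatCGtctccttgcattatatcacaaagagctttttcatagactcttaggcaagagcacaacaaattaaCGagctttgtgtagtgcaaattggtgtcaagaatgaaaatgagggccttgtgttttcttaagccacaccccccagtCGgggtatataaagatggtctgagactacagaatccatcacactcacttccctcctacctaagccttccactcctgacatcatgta
Xcr1 (chr9:123861980-123862279, minus strand): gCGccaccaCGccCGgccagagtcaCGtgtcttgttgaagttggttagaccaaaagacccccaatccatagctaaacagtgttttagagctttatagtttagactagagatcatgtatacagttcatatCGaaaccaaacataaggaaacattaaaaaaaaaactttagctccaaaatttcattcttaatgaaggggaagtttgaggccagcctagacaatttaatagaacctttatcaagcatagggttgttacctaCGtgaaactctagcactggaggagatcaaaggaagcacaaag
Ccr3 (chr9:124021721-124022020, plus strand): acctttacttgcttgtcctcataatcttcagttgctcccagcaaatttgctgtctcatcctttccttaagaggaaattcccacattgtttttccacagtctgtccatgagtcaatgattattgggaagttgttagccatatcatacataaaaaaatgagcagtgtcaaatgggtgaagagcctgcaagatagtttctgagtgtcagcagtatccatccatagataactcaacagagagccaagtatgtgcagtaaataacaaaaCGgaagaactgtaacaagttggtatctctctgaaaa
Ccr2 (chr9:124101933-124102232, plus strand): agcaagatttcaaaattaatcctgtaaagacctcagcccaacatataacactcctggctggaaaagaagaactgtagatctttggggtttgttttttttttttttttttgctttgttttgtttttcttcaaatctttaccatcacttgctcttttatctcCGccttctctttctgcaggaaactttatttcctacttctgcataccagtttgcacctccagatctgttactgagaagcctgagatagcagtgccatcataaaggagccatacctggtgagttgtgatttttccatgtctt

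The CpG content of these promoters varied. Ccr2 and Ccr3 held 1 CpG dinucleotide each, Macc1 2, Krtap8-1 4, Xcr1 6 and Neurod4 7, and the median over all autosomal promoter windows was 7. The other Neurod4 window inside islands on both days, not shown, held 4. Over all distal promoter windows the median was 8 CpG dinucleotides and a G+C content of 54%. In distal windows inside day 0 islands the medians were 3 and 45%, and inside day 3 islands 4 and 43.2%. Promoters inside islands on the rest of the autosomes had medians of 3 and 44.7% on day 0 and of 2 and 41.7% on day 3, so low CpG content was shared with islands elsewhere. The telomeric hexamer TTAGGG, searched on both strands, was present in 5 of the 59 windows inside day 0 islands and in 7 of the 50 inside day 3 islands. It was present in 10.6% of all autosomal promoter windows.

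The last 10 Mb held less H3K9me3 island sequence than the rest of the same chromosomes on both days. On day 0, islands covered 6.67 Mb or 3.51% of the distal windows and 4.24% of the rest, a ratio of 0.828 (0.783 to 0.875, from the counts of islands). On day 3 they covered 10.9 Mb or 5.73% of the distal windows and 8.48% of the rest, a ratio of 0.676 (0.650 to 0.702). These intervals cover counting error only and treat islands as independent, although neighbouring islands are not. Members were 6.58% of autosomal islands on day 0 (Wilson interval 6.24 to 6.93) and 5.59% on day 3 (5.39 to 5.80). They held 6.63% of the reads inside autosomal islands on day 0 and 5.49% on day 3, in both cases less than the 7.91% of sequence. At the proximal ends, in the first 10 Mb after the first gene or island, 3.65% was covered on day 0, near the distal share, and 7.96% on day 3, near the share of the rest.

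The deficit was not spread evenly over chromosomes, as the plot of each chromosome's distal and remaining coverage shows. On day 0 the distal window was covered less than the rest on 11 of 19 chromosomes, and on day 3 on 14 of 19. The lowest distal shares were on chromosomes 2, 4 and 11, with 1.38, 1.47 and 1.47% on day 0 and 1.75, 0.926 and 0.706% on day 3. Their ratios to the rest were 0.263, 0.356 and 0.335 on day 0 and 0.163, 0.117 and 0.109 on day 3. The highest distal shares on day 3 were on chromosomes 18 (12.8%), 13 (12.4%), 17 (9.41%), 12 (9.31%) and 14 (9.25%), and these were the 5 chromosomes with a ratio above 1 that day. Their ratios were 1.63, 1.28, 1.499, 1.01 and 1.17 in that order. On day 0 the highest distal shares were on chromosomes 13 (5.89%) and 6 (5.72%).

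**Figure D1:**
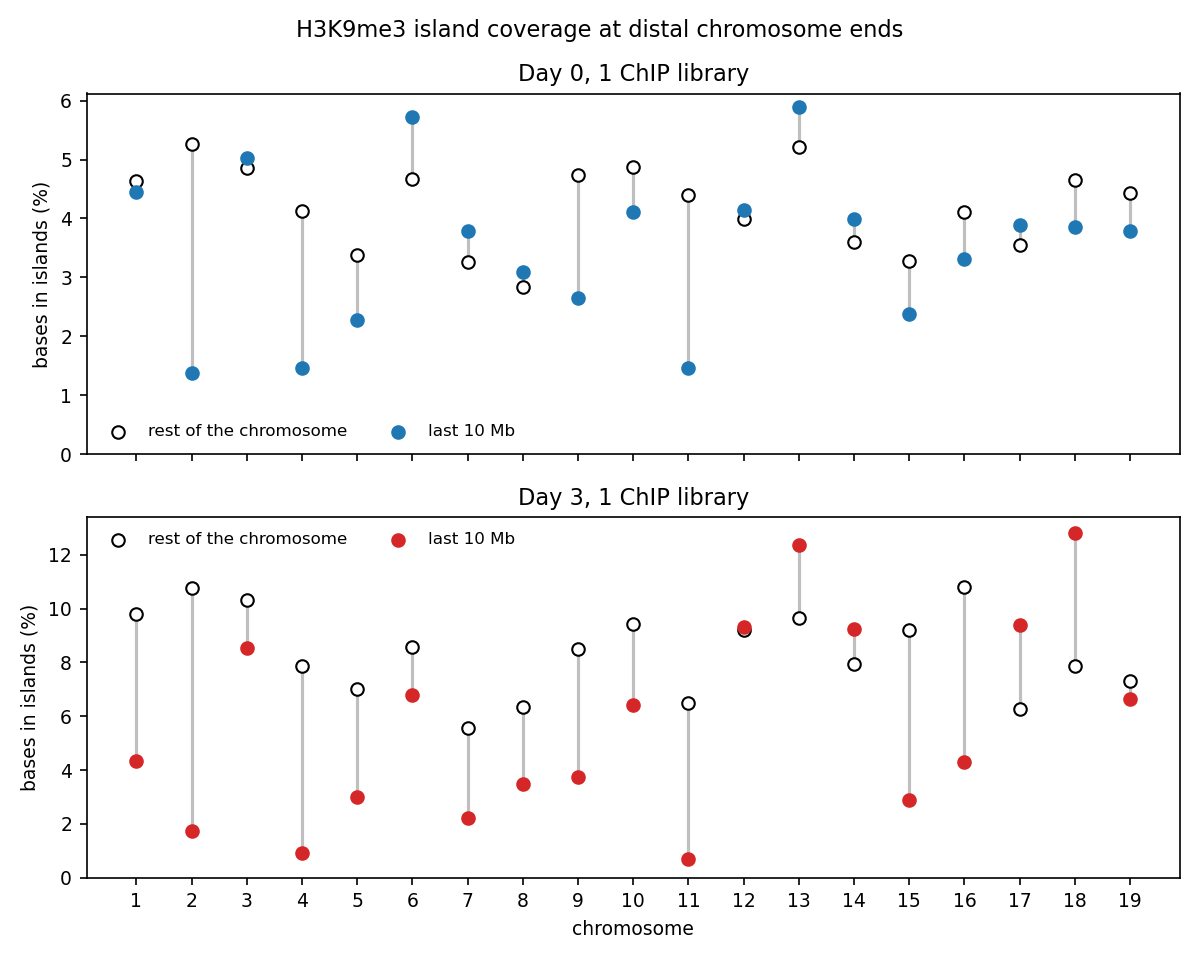
Percentage of bases inside H3K9me3 islands in the last 10 Mb (filled) and in the rest (open) of each autosome, on day 0 (upper) and day 3 (lower), 1 ChIP library per day. On day 3 the filled point lies below the open one on 14 of 19 chromosomes, with chromosomes 13 and 18 highest at 12.4 and 12.8%.

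The coverage of the distal windows differed less between the 2 libraries than that of the rest. Day 3 had 1.63 times the day 0 coverage in the distal windows and 2.0 times in the rest. In the rest all 19 chromosomes had more covered sequence on day 3, while 4 distal windows (chromosomes 1, 4, 7 and 11) had less. Chromosome 7 went from 378 kb on day 0 to 222.6 kb on day 3, chromosome 11 from 147.2 to 70.6 kb, chromosome 4 from 147 to 92.6 kb and chromosome 1 from 444.8 to 434 kb. The distal window of chromosome 18 had the largest ratio of day 3 to day 0, at 3.31 (386 and 1279 kb). In steps of 1 Mb, day 3 had the higher coverage in 114 of 190 distal windows (60%) and day 0 in 71 (37.4%). Over all autosomal windows the shares were 76.1 and 22.2%.

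Members had the median length of other islands and a nearly equal read density. The median length was 4800 bp on day 0 in the distal windows and in the rest (quartiles 3800 and 6000, and 3800 and 5800), and 3600 bp on day 3 in both (quartiles 2800 and 4800, and 2800 and 5000). The median density was 34.0 reads per kb in the distal windows and 34.1 in the rest on day 0, and 52.8 and 52.9 on day 3. Densities were not scaled for depth here, and the deposited counts were taken as unscaled. The lowest density in the day 0 list was 23.6 reads per kb and that in the day 3 list 34.1, so an island listed only on day 0 is no evidence that the mark was lost. Islands of at least 10 kb were 2.66% of members on day 0 (interval 1.92 to 3.68) and 1.88% on day 3 (1.43 to 2.47), against 1.95 and 2.45% in the rest.

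Most members had no counterpart on the other day. Of the day 0 members, 376 or 28.6% (Wilson interval 26.2 to 31.1) overlapped a day 3 island by at least 1 bp. The share was 34.0% in the rest (33.3 to 34.7) and 33.6% over all autosomal day 0 islands. Of the day 3 members, 395 or 14.8% (13.5 to 16.3) overlapped a day 0 island, against 14.9% in the rest and 14.9% of all. No test of these differences was made.

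Inside the window, low coverage lay in the part 2 to 10 Mb from the end, and the last 2 Mb were covered more. Coverage below that of the rest also continued inward past the 10 Mb border. In the outermost 1 Mb, 5.75% of bases lay in islands on day 0 and 11.1% on day 3, and in the next 1 Mb 5.12 and 9.75%. Within the window the day 0 share was lowest from 4 to 5 Mb from the end, at 2.19%, and the day 3 share was lowest, at 3.59%, from 4 to 5 Mb and from 7 to 8 Mb. At the border of the window they were 2.91 and 4.99% from 9 to 10 Mb and 3.61 and 5.10% from 10 to 11 Mb. From 10 to 20 Mb the steps held 2.46 to 4.71% on day 0 and 4.17 to 7.51% on day 3. The rest of the autosomes, which includes these steps, held 4.24 and 8.48%. For the last 20 Mb the ratio to the remainder of the chromosomes was 0.832 on day 0 and 0.682 on day 3. The nearest excluded day 0 island, 10015 kb from the end of chromosome 18, held 30.9 reads per kb, and the innermost day 0 member, 9977 kb from the end of chromosome 3, held 29.4.

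**Figure D2:**
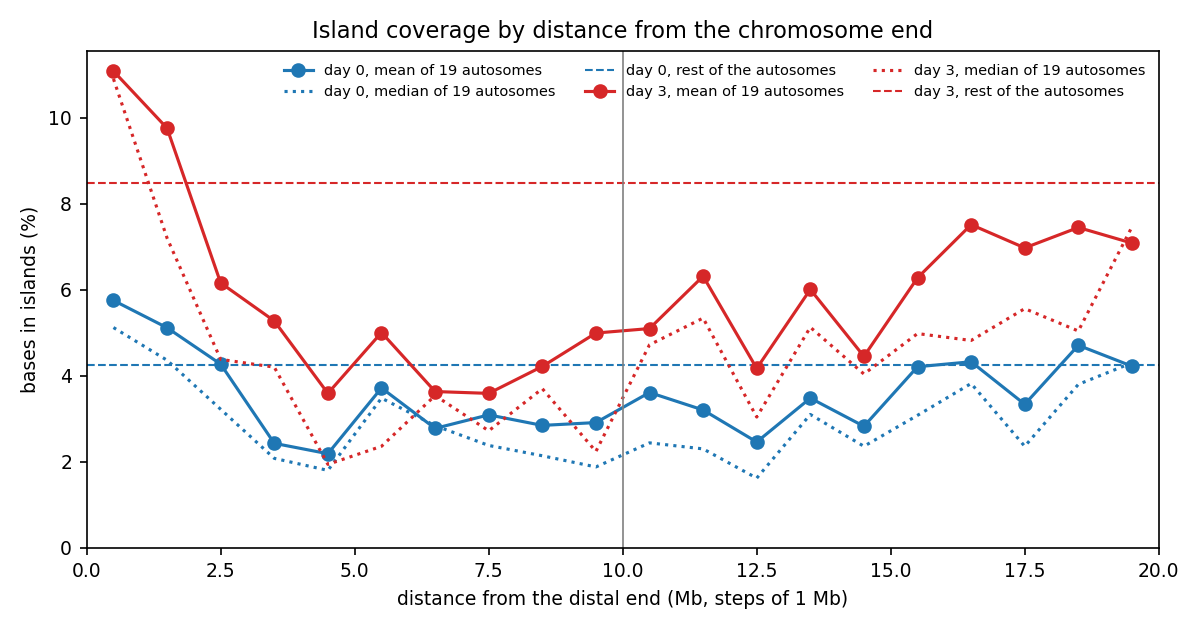
Percentage of bases inside islands in steps of 1 Mb from the distal end, as the mean (solid) and median (dotted) of 19 autosomes, with the share in the rest of the autosomes (dashed) and the 10 Mb border (grey). Mean coverage is highest in the outermost 1 Mb, at 5.75% on day 0 and 11.1% on day 3, and falls below the dashed lines from 3 to 10 Mb. On day 3 it stays below its dashed line to 20 Mb.

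Taken as a whole, the last 2 Mb had 5.43% of bases in islands on day 0 and 10.4% on day 3, which is 1.28 and 1.23 times the share in the rest of the autosomes. The part from 2 to 10 Mb had 3.03 and 4.56%, or 0.714 and 0.537 times the rest. This split at 2 Mb was chosen after the profile had been seen. The last 2 Mb were covered more than the 8 Mb before them on 16 of 19 chromosomes on each day. They were covered more than the rest of the chromosome on 12 of 19 on day 0 and on 11 of 19 on day 3. Chromosomes 18 and 12 stood far above the others on day 3, with 29.9 and 24.98%, followed by chromosome 3 with 16.8%. Without chromosome 12 the day 3 ratio of the last 2 Mb to the rest was 1.14, without chromosome 18 it was 1.098, and without both it was 0.994. The pooled excess over the rest on day 3 therefore rested on these 2 chromosomes, although the median of the 19 ratios was 1.30. On day 0 the ratio without both was 1.20. The lowest values were on chromosomes 4 (1.7 and 0.65%), 7 (2.28 and 1.11%) and 11 on day 3 (1.92%).

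**Figure D3:**
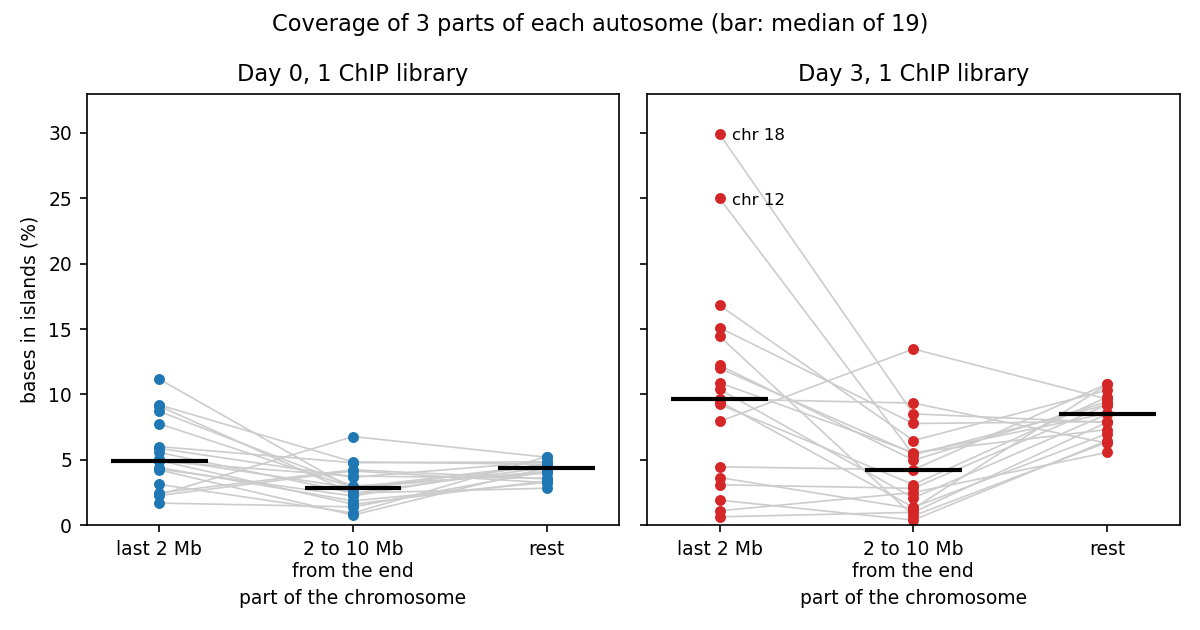
Percentage of bases inside islands in the last 2 Mb, from 2 to 10 Mb from the end, and in the rest of each autosome (points joined by chromosome, bars are medians of 19). The medians are 4.95, 2.86 and 4.40% on day 0 and 9.66, 4.25 and 8.49% on day 3, and chromosomes 12 and 18 lie above 20% in the last 2 Mb on day 3.

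The 2 parts also differed in their other measures. Islands in the last 2 Mb had median densities of 34.7 (day 0) and 53.9 (day 3) reads per kb, against 33.6 and 52.1 from 2 to 10 Mb. They overlapped an island of the other day in 37.7% of cases on day 0 (interval 33.1 to 42.4, 409 islands) and 19.01% on day 3 (16.6 to 21.7, 910 islands). From 2 to 10 Mb the shares were 24.5% (21.8 to 27.4) and 12.7% (11.2 to 14.3). Over all autosomal islands they were 33.6% on day 0 and 14.9% on day 3. An overlap of 1 bp is easier to reach where the other day covers more sequence, and both days covered more of the last 2 Mb. The part of coverage in these shares was not tested. On 8 chromosomes on day 0 and 13 on day 3 the outermost island ended within 100 kb of the end. On 2 of these on each day that island itself set the end, so its distance of 0 follows from the definition, and 6 and 11 chromosomes remain. How often an island lies within 100 kb of other positions was not measured. Day 3 had 47545 autosomal islands and day 0 had 19984. On chromosome 12 the end was set by a day 3 island of 14 kb with 766 reads, in Tmem196. It covered all of the outermost day 0 island there (120013401 to 120019200, 196 reads). The largest distance was 757.7 kb on day 3, on chromosome 4, and 537.9 kb on day 0, on chromosome 13.

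The distal windows held more genes than the rest, and the gene-rich ones had the lowest mean coverage on both days. There were 10.5 protein-coding genes per Mb in the distal windows and 8.39 in the rest. The window of chromosome 11 held 206 genes and that of chromosome 18 held 25. Among 1 Mb windows with 0 to 4 genes, mean coverage was 4.00% in 71 distal windows and 3.66% in 999 others on day 0, and 9.25 and 10.1% on day 3. With 5 to 14 genes it was 3.49 and 5.22% on day 0 and 4.09 and 8.25% on day 3. With 15 or more genes it was 2.81 and 3.74% on day 0 and 2.95 and 4.93% on day 3. Distal windows with 5 or more genes thus had lower means than other windows of the same gene number on both days, and those with 0 to 4 genes did not on day 0. The part of gene density in the lower distal coverage was not tested.

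Protein-coding genes in the distal windows had islands in a lower share than protein-coding genes of all autosomes. Of 1998 such genes, 353 (17.7%) had at least 1 bp of the body in an island on day 0, against 24.1% of all autosomal genes. On day 3 it was 383 (19.2%), against 28.8%. An island was present on both days in 219 distal genes (11.0%, against 16.9%), on day 0 only in 134 (6.71%, against 7.18%) and on day 3 only in 164 (8.21%, against 11.9%). The remaining 1481 had none. Of the covered bases, 50.2% on day 0 and 48.2% on day 3 lay in protein-coding gene bodies, which made up 45.5% of the distal windows.

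Genes were ranked here by bases that were inside islands on day 3 alone. Such a ranking favours long bodies, and the leading genes were long. Dok6 (chromosome 18, 89292423 to 89769540), an adaptor of receptor tyrosine kinases, had 21.4 kb inside 4 islands on day 0 and 224.2 kb inside 41 on day 3. It holds the longest member, an island of 26.8 kb with 1521 reads on day 3. Gpc5, a cell surface proteoglycan gene, was covered over 81.4 and 226.8 kb. The zinc finger gene Zfp407 had 42.8 and 114.0 kb. Fgf14, which modulates sodium channels, had 36 and 102.4 kb. Sdk1, a cell adhesion gene whose body crosses the border of the window and was measured whole, had 10 and 83.4 kb, and Atrnl1 had 2.4 and 72.2 kb. With only as many day 3 islands as day 0 has, those with the most reads, the day 3 excess was 167.8 kb in Dok6 instead of 202.8 kb. It was 78.2 kb in Gpc5 instead of 145.4 kb, 45.0 kb in Zfp407 instead of 71.2 kb, 35.4 kb in Atrnl1 instead of 69.8 kb and 14.6 kb in Fgf14 instead of 66.4 kb. With islands of at least the median density of their list it was 209.8 kb in Dok6, 27.4 kb in Gpc5, 38.2 kb in Zfp407, 30 kb in Atrnl1, 23.8 kb in Fgf14 and 30.8 kb in Sdk1 (73.4 kb with all islands). In Lrrc7, a synaptic scaffold gene with 34.6 kb on day 0 and 75.2 kb on day 3, the difference was 15.8 kb under the density limit and turned to -6.82 kb with equal numbers of islands.

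Of the 22 synaptic, axonal and channel genes listed in the distal windows, 18 had an island on each day (81.8%) and 16 on both (72.7%), against 17.7, 19.2 and 11.0% of all distal protein-coding genes on day 0, day 3 and both. The list had medians of 8.9 kb covered on day 0 and 21.8 kb on day 3. The list was drawn up with results of these data known, and its members are long, with a median body of 408.4 kb against 16.2 kb for all distal protein-coding genes. The sodium leak channel gene Nalcn was covered over 4.8 and 69.0 kb, an excess of 64.2 kb that was 21.2 kb under the density limit and 32.8 kb with equal numbers of islands. Dscam, an adhesion gene of neurons, had 35.0 and 36.6 kb, and its difference was -17.0 and -15.8 kb under these alternatives. Disc1, a scaffold gene, had 7.4 kb on day 0 only, which was absent under the density limit.

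Several distal genes had as much coverage on day 0 as on day 3, or more. Sox5, a transcription factor gene of the SoxD group, was covered over 83.8 and 82.4 kb, Pard3, a cell polarity gene, over 58.6 and 58.2 kb, and Dnah11, an axonemal dynein gene, over 44.0 kb on each day. Most of these bases differed between days. Over all autosomes, too, most islands had no overlap with the other day, with 33.6% of day 0 and 14.9% of day 3 islands overlapping. With equal numbers of islands the difference, day 3 minus day 0, was -33.0 kb in Sox5 instead of -1.4 kb, -17.8 kb in Pard3 instead of -0.4 kb and -22.8 kb in Dnah11, where it was 11.6 kb under the density limit. In Dnah11, 42.2 kb on each day lay outside the islands of the other day, and in Sox5 73.2 kb of the day 0 bases and 71.8 kb of the day 3 bases did. Plxna2, a semaphorin receptor gene 0.597 Mb from the end of chromosome 1, had 33 kb in 5 islands on day 0 and 4.2 kb on day 3. Tafa2, a secreted neuronal protein gene, had 53.4 and 47.0 kb (a difference of -43.4 kb with equal numbers of islands), and Ptprn2, a receptor-type phosphatase gene of secretory vesicles, 39.8 and 21.0 kb. Ablim1 (16.0 kb) had islands on day 0 only, and Rptor, a subunit of the mTORC1 kinase complex, had 13.4 and 2.2 kb. With islands of at least the median density of their list, the difference, day 3 minus day 0, was -3.8 kb in Ablim1 instead of -16.0 kb, -5.0 kb in Rptor instead of -11.2 kb and -5.8 kb in Ptprn2 instead of -18.8 kb.

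The 5 genes ranked first by covered share on both days (the lower of the daily shares, bodies of at least 5 kb) lay close to the end in 4 of 5 cases. The outermost 1 Mb held 271 of the 1998 distal protein-coding genes and had the highest mean coverage of the window on both days. Neurod4, 0.319 Mb from the end of chromosome 10, had 55.0% of its body inside an island on day 0 and all of it, 100%, on day 3. The day 0 island (130273601 to 130285000) held 382 reads (exact Poisson interval 345 to 422) and the day 3 island (130264801 to 130281800) 920 (862 to 981). Tmx3, an endoplasmic reticulum oxidoreductase gene 0.067 Mb from the end of chromosome 18, had 36.8 and 64.2%. Cr1l, a complement regulator gene 0.200 Mb from the end of chromosome 1, had 34.1 and 76.0%. Eif3a, a translation initiation factor gene 0.529 Mb from the end of chromosome 19, had 46.0 and 35.2%. The germ cell helicase gene Ddx4, with 53.0 and 63.0%, was 7.69 Mb from the end of chromosome 13 and holds the longest day 0 member, of 14.8 kb with 484 reads.

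Several genes had the most covered bases of the distal window of their chromosome on 1 day. Sycp2, a gene of the meiotic synaptonemal complex on chromosome 2, had no island on day 0 and 36.8 kb or 58.9% of its body in 6 islands on day 3. Pds5b, a cohesin-associated gene that led chromosome 5 on day 0, had 31.1 and 68.2 kb. Kif15, a mitotic kinesin gene on chromosome 9, had 5 and 25 kb. Itgb8, an integrin gene 0.823 Mb from the end of chromosome 12, had 4.0 kb on day 0 and 47.6 kb (63.1% of its body) on day 3, and Syt14, a synaptotagmin gene on chromosome 1, had 19 and 53.4 kb. Rere, a nuclear corepressor gene on chromosome 4, had 32 and 18.6 kb, Adamts20, a metalloprotease gene on chromosome 15, 5.2 and 21.6 kb, and Tnrc6c, a gene of microRNA silencing on chromosome 11, 4.6 and 8.4 kb. Under the density limit the day 3 excess was 1.0 kb in Kif15 instead of 20 kb and 20.2 kb in Sycp2 instead of 36.8 kb, and with equal numbers of islands it was 18.2 kb in Syt14 instead of 34.4 kb and -0.6 kb in Adamts20 instead of 16.4 kb. Of the 7 listed cell cycle genes in the distal windows, Brca2, a DNA repair gene, had 11.3 and 14 kb (a difference of -1.15 kb under the density limit and with equal numbers of islands), and 5 had no island, among them Mki67 and Ccnd1.

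Of the 43 T cell and lymphocyte genes listed in the distal windows, 16 had an island on day 0 (37.2%), 10 on day 3 (23.3%) and 8 on both (18.6%), and 25 had none. The shares of all distal protein-coding genes were 17.7, 19.2 and 11.0%, and those of all autosomes 24.1, 28.8 and 16.9%. The day 3 share thus lay between the backgrounds and the day 0 share above both. The list was drawn up with results of these data known. Its genes have a median body of 24.8 kb, against 16.2 kb for all distal protein-coding genes. It also counts Mx1 and Mx2, which are annotated as transcribed pseudogenes. Receptor and adhesion genes had the most coverage on day 3. The activating receptor gene Cd226 had 6.4 kb inside islands on day 0 and 46.8 kb on day 3. Itgb1, the integrin beta 1 chain gene 0.577 Mb from the end of chromosome 8, was covered over 1.98 kb at its edge on day 0 and 29.98 kb or 62.6% of its body on day 3, mostly by an island of 21.2 kb with 1137 reads. The genes of its partner chains Itga1 and Itga2, on chromosome 13, had 25.8 and 28.0 kb, and 4.8 and 15.4 kb. Nrp1, a semaphorin and growth factor receptor gene next to Itgb1, had 19.2 and 30.2 kb. With a day 3 list of the same length as that of day 0, the Itga2 coverage was equal on both days and the Itga1 difference, day 3 minus day 0, was -10.2 kb instead of 2.2 kb.

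The outermost genes of chromosome 1 form a group of complement and cell surface genes that differed in their values. Cd46 and Cr2, both of the complement receptor family, had 7.2 and 23.4 kb, and 12.6 and 13.2 kb (a difference of -3.21 kb in Cr2 under both alternatives), and Cr1l lies between them. Cd34, a sialomucin gene of progenitor cells on the proximal side of Cd46, had 7.49 kb on day 0 and no island on day 3.

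Of the 43 listed lymphocyte genes 18 had an island, 8 of them on day 0 only, Cd34 among them, and 2 on day 3 only. Among all distal protein-coding genes, 6.71% had one on day 0 only and 8.21% on day 3 only. Among those of all autosomes the shares were 7.18 and 11.9%. The 8 include Mx1, where an island reached only 0.166 kb or 1.05% of the body. Gzma, the granzyme A gene, had 91.9% of its body in 1 island of 262 reads on day 0 (34.5 reads per kb), which also reached into Cdc20b, and its neighbour Gzmk had no island on either day. Ikzf4, a transcription factor gene of the Ikaros family, had 6.4 kb, the tetraspanin gene Cd81 4.6 kb, the transcription factor gene Irf8 4.4 kb, Socs6, a suppressor of cytokine signalling, 3.8 kb, and the signalling adaptor gene Traf3 3.4 kb, with no day 3 island in any of these 5. At 33.1 and 33.2 reads per kb, the islands in Ikzf4 and Irf8 were below the lowest day 3 density of 34.1, and neither was left under the density limit. Those in Gzma (34.5) and Socs6 (34.7) were close above that density. Other day 0 islands below it were those in Mx1 (33.1), Cbx5 (32.4) and Disc1 (29.9) and the longest in Ablim1 (31.5). On day 3 only, Mx2, of an interferon-induced family and annotated as a transcribed pseudogene, had 5.4 kb. The transcription factor gene Runx1 had 3.6 kb or 1.60% of its body, also on day 3 only. This Runx1 coverage was absent under the density limit and with equal numbers of islands. Nckap1l, an actin regulator gene of blood cells, had 3.6 and 9.2 kb, and under the density limit its difference was -3.6 kb. No island was listed on either day in Eomes, Tgfbr2, Stat2, Stat6, Socs3, Nfatc1, Il6st or the TNF receptor genes Tnfrsf4, Tnfrsf9, Tnfrsf14, Tnfrsf18 and Tnfrsf25.

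**Figure D4:**
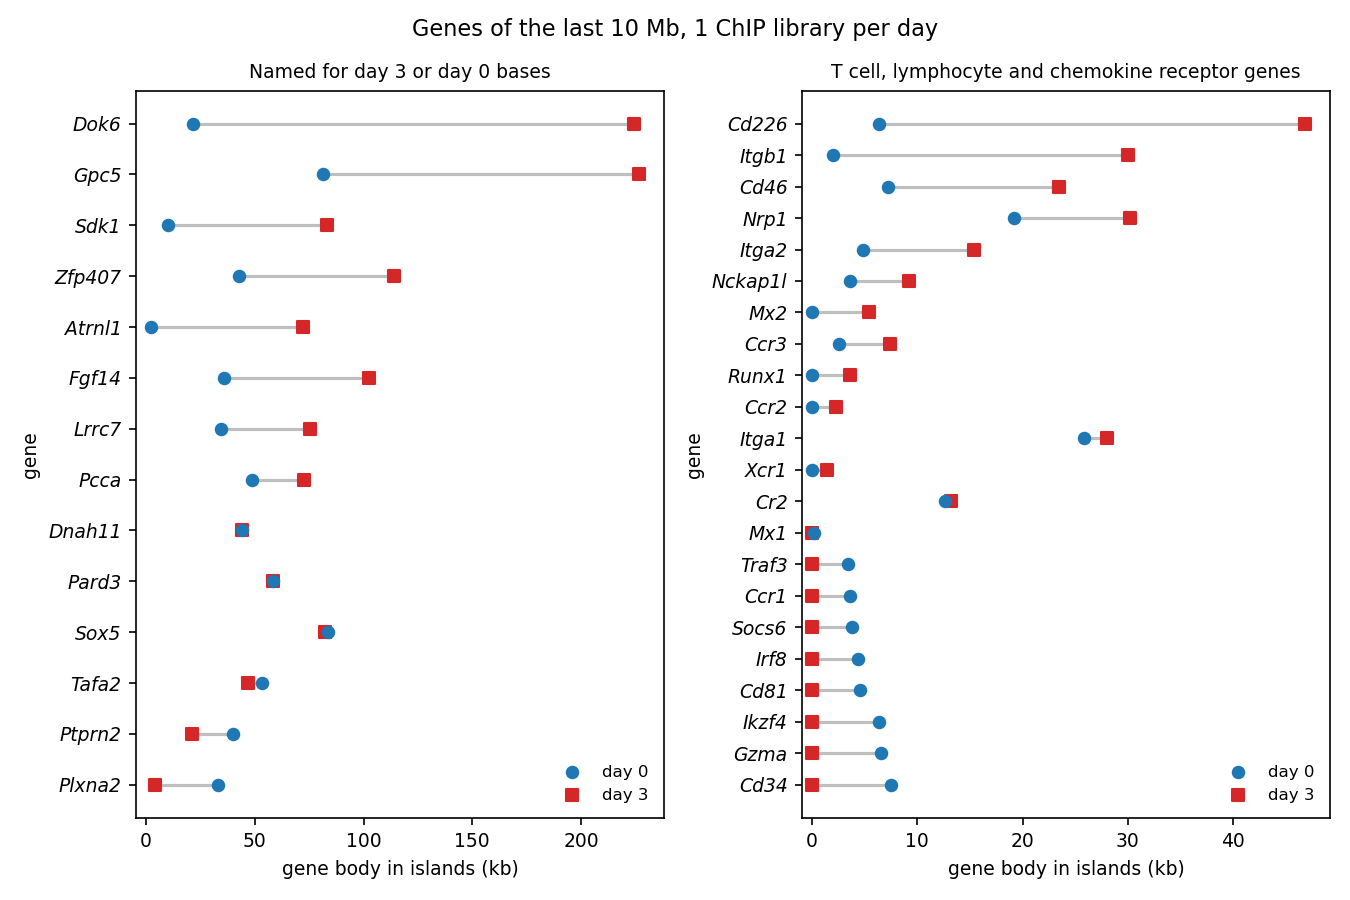
Length of gene body inside islands (kb) on day 0 (circles) and day 3 (squares) for genes of the text chosen for bases covered on 1 day and not on the other (left) and for the lymphocyte and chemokine receptor genes with an island (right). Dok6 goes from 21.4 to 224.2 kb and Cd226 from 6.4 to 46.8 kb, while Plxna2 goes from 33 to 4.2 kb.

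Chemokine receptor genes, which guide the migration of lymphocytes, include a cluster near the end of chromosome 9. Of 12 in the distal window, islands were present in 2 on day 0 (16.7%) and in 3 on day 3 (25%), near the 17.7 and 19.2% of all distal protein-coding genes, and 8 had none, among them Cxcr6 and Ccr9. Ccr3 had 2.6 kb on day 0 and 7.4 kb (53.4% of its body) on day 3, in islands of 139 reads (116.9 to 164.1) and 489 reads (446.6 to 534.3) that did not overlap. Ccr1 had 3.6 kb (54.8%) on day 0 only. Ccr2 and Xcr1 had 2.28 and 1.43 kb on day 3 only. The Ccr2 island of day 3 (124097201 to 124104200, 361 reads) also covers the site of a day 0 island that ended 0.118 kb before the gene (124097001 to 124101800, 177 reads), so that the locus held an island on both days and the promoter was inside one on day 3 only. With islands of at least median density the Ccr2 coverage was lost, and with the reduced day 3 list that of Xcr1.

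Of 14 imprinted genes in the distal windows, 2 (14.3%) had one on each day, against 17.7 and 19.2% of distal protein-coding genes. Only Kcnq1 (50.8 kb, then 33 kb on day 3) and the Kcnq1ot1 transcript within it (23.7 and 27.3 kb) had any, 2.06 Mb from the end of chromosome 7, while Igf2, H19, Cdkn1c and Phlda2 near them and Gnas on chromosome 2 had none. The Kcnq1 difference, day 3 minus day 0, was -17.8 kb with all islands and 10.4 kb under the density limit, and that of Kcnq1ot1 was 3.6 kb and, with equal numbers of islands, -2.2 kb. Of 7 heterochromatin and Polycomb genes, 1 (14.3%) had an island on day 0 and none on day 3. Cbx5, the HP1 alpha gene 0.684 Mb from the end of chromosome 15, had 13.1 kb on day 0 only, and Cbx2 and Cbx8 at the end of chromosome 11 had none. Hoxc4, in the homeobox cluster near Cbx5, had 8.6 kb on day 0 only, and the other 8 Hoxc genes had none. The Cbx5 difference was absent with islands of at least median density.

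Clustered gene families of the distal windows differed in how many members had an island, beside 17.7 and 19.2% of all distal protein-coding genes on day 0 and day 3. Of 86 distal olfactory receptor genes, 7 had an island on day 0 (8.14%), 8 on day 3 (9.30%) and only Olfr827, wholly covered on both days, had one on both. Of 46 Zfp genes, 7 had one on day 0 (15.2%) and 11 on day 3 (23.9%), near the share of all distal genes. In the Zfp cluster of chromosome 4, Zfp981, Zfp993, Zfp982, Zfp979 and Zfp933 had islands on day 3 only and Zfp992 on day 0 only. This cluster also holds dense islands, with 86.2 reads per kb on day 0 in Zfp992 and 74.8 on day 3 over Zfp981 and Zfp993, against medians of 34.0 and 52.8 for all members. Zfp genes of such clusters can be close copies of one another, and the sources used here do not give how reads fitting several copies were counted. Of the 120 immunoglobulin heavy chain V segments on chromosome 12, 1 had an island on day 0 (0.833%) and 9 others on day 3 (7.5%). All 6 Slco1 organic anion transporter genes on chromosome 6 had an island on day 3 and 2 of them on day 0. None of the 8 Cyp3a, 11 Cd300 and 6 vomeronasal receptor genes had one. Among 55 keratin and keratin-associated genes, 4 had one on day 0 (7.27%) and 2 on day 3 (3.64%). Gene bodies in these families differ in length, with medians of 0.939 kb for olfactory receptor genes, 0.294 kb for immunoglobulin segments and 54.0 kb for Slco1 genes, against 16.2 kb for all distal protein-coding genes.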

How the data were processed

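The authors' island files for the 2 ChIP libraries give chromosome, start, last base and a count of reads per island. The counts were taken as not scaled for depth, which the labels do not state. Per the submitters' processing notes, reads were handled with Bowtie2 and SICER 1.1 on mm10. The sources used here do not give the threshold, gap, treatment of duplicates or use of input. Borders lie on a grid of 200 bp.

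Starts were converted to count from 1. Islands were assigned by midpoint, and covered bases were clipped at the 10 Mb border. The rest of a chromosome began at its first gene or island. Gene positions are from RefSeq (GRCm38.p6), leaving out 328 rows whose coordinates fall before 3 Mb, where the chromosomes hold no islands, and 20560 autosomal protein-coding genes were used. A gene counted as having an island with at least 1 bp of its body covered. Wilson and exact Poisson intervals (95%) cover counting error only, and reads without molecular identifiers are not independent molecules. Autosomal islands held 3400431 reads on day 0 and 10416275 on day 3, and the island files do not hold total library depth. Days were compared by the ratio of distal to remaining coverage within a day. Covered sequence of windows and genes was also set side by side, without scaling for depth. No test between days was made.

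Named genes were the 10 with the most bases covered on day 3 only and the 10 on day 0 only, the 5 with the highest share on both days, the leading gene per chromosome and day, and listed genes with an island, in 6 lists and 9 families. The members and lists were chosen with earlier results of these data known. Of 123 list symbols 121 matched and 105 were distal. The alternatives were other window lengths, a density limit, equal list lengths, a length limit and stricter overlaps. Python 3.11.15 and pandas 2.3.3 were used, and the coverage computation was tested on simulated islands. Results of a few members are not reported here.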

Additional observations from a re-analysis of the deposited data

Results flagged for a closer look

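On 5 chromosomes the last 10 Mb lay on opposite sides of the rest of the chromosome on the 2 days, as the ratio of the covered shares. The difference between days was not tested, since each day has 1 library. On chromosome 7 the ratio was 1.16 on day 0 and 0.399 on day 3, and on chromosome 8 it was 1.09 and 0.547. On chromosome 6 it was 1.23 and 0.793, and on chromosome 3 it was 1.04 and 0.828. Chromosome 18 was the only one of the 5 to go the other way, with 0.831 on day 0 and 1.63 on day 3.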

How the results depend on the processing

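The ratio of distal to remaining coverage stayed below 1 on both days under every alternative tried. It was 0.942 on day 0 and 0.863 on day 3 for the last 5 Mb, and 0.832 and 0.682 for the last 20 Mb. The median of the 19 chromosomes was 0.547 on day 3. The distal share exceeded the rest on 4 chromosomes on day 0 for the last 20 Mb and on 8 on day 3 for the last 5 Mb. Distal genes with an island numbered 210 and 218 for the last 5 Mb, 742 and 780 for the last 20 Mb, and 177 and 221 with 10% of the body required. On day 0 they numbered 204 with islands of at least median density, and on day 3 238 with equal list lengths.

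The share of day 0 members overlapped on day 3 was 33.5% for the last 5 Mb, 18.7% with the density limit, 18.2% with equal list lengths and 18.9% with an overlap of 50% required. The ratio of the last 2 Mb to the rest was 1.47 and 1.48 with the density limit and 1.33 on day 3 with equal list lengths. On day 3 it was 1.14 without chromosome 12, 1.098 without chromosome 18 and 0.994 without both. These alternatives for the last 2 Mb and for single genes were chosen after seeing the data, and the cause of each change was not tested.

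Of 61 genes, the difference in covered bases changed sign in 7 with the density limit, in 9 with equal list lengths and in none with islands of at least 2000 bp. The difference kept a similar size in 21, 31 and 58 genes, in that order, and moved without such a reversal in 33, 21 and 3. The genes that moved include those whose difference fell to 0, and Dnah11, whose difference was 0 with all islands. In kb, day 3 minus day 0, it became -1.15 in Brca2, -3.21 in Cr2, -17.0 and -15.8 in Dscam and -3.2 and -10.2 in Itga1 under the first and the second. Under the density limit it became 10.4 in Kcnq1, -3.6 in Nckap1l and 2.2 in Rab22a. Under equal list lengths it became -0.6 in Adamts20, -2.2 in Kcnq1ot1, -6.82 in Lrrc7, -18.0 in Negr1 and -12.6 in Pcca. No paired analysis was possible because each day has 1 ChIP library and its replicate number is only a name.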
